A study of Mus musculus with 20 samples.

Results

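The 10 immediate early genes Egr1, Egr2, Egr3, Nr4a1, Nr4a2, Nr4a3, Ier2, Ier3, Ier5 and Btg2 were taken by name from the 42374 genes with summed counts in RNA sequencing of mouse muscle endothelial cells. All 10 were among the 13971 genes that passed the low-count filter and were tested. The endothelial cells, which line blood vessels, carried CD31 and lacked CD45 on their surface and were sorted straight into lysis buffer. The 20 libraries formed 4 groups of 5: soleus (oxidative muscle) of ECKO mice, soleus of WT mice, extensor digitorum longus (glycolytic muscle) of ECKO mice, and extensor digitorum longus of WT mice. All mice were C57BL/6N. ECKO stands for an endothelial-cell-specific Atf4-/- genotype, in which loss of Atf4 was induced with 1 mg tamoxifen per day for 5 days at 8 to 10 weeks of age. WT mice were littermates without Cre and received the same tamoxifen, and at least 7 days without treatment followed in both genotypes. The promoter that drives Cre, the number of animals behind a library and the way the muscles were dissociated are not given in the sources used here. Since replicate libraries may be technical repeats, a p-value here covers the scatter among these libraries and no more.

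Immediate early genes are transcribed within minutes of a stimulus, such as a growth factor, stretch, shear or calcium entry, from factors already present in the cell and without new protein synthesis. Serum response factor with its ETS partners, and CREB bound to cAMP response elements, are the classic activators, and kinases of the MAPK pathway act on both. Egr1, Egr2 and Egr3 encode zinc finger transcription factors, Nr4a1, Nr4a2 and Nr4a3 encode orphan nuclear receptors that act without a known natural ligand, and Ier2, Ier3, Ier5 and Btg2 encode small regulators of growth and survival. Such genes, together with heat shock genes, are also known to be induced while a tissue is being dissociated. Atf4, the deleted gene, encodes the transcription factor at the centre of the integrated stress response.

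Library totals ranged from 8013223 to 21720127 counts. Atf4 averaged 8.29 CPM in oxidative ECKO and 554 CPM in oxidative WT, and 7.38 CPM in glycolytic ECKO and 262 CPM in glycolytic WT (CPM, read counts scaled to a common library total by TMM-normalised library sizes). Summed over 11 pan-endothelial markers, all above 1 CPM in each group, the level was 9999 to 10220 CPM in oxidative ECKO and 9206 to 9740 CPM in oxidative WT, and 8880 to 9000 CPM in glycolytic ECKO and 10300 to 10660 CPM in glycolytic WT, with no overlap in either pair. RNA of other cells moved with the groups. The summed level of 15 immune markers was 49.8 to 105 CPM in oxidative ECKO and 306 to 401 CPM in oxidative WT, and 23.4 to 25.1 CPM in glycolytic ECKO and 37.2 to 43.0 CPM in glycolytic WT. Ptprc, which encodes CD45, averaged at most 2.53 CPM, in oxidative WT. The summed level of 20 muscle fibre markers was 258 to 351 CPM in oxidative ECKO and 134 to 264 CPM in oxidative WT, and 172 to 176 CPM in glycolytic ECKO and 80.4 to 86.6 CPM in glycolytic WT. The 10 WT libraries all carried Y-linked RNA. Oxidative ECKO libraries 1, 2 and 3 carried 56.6%, 57.5% and 28.2% of the oxidative WT mean of 4 Y-linked genes, and oxidative ECKO libraries 4 and 5 and all glycolytic ECKO libraries at most 1.35%. The genotype comparisons, the comparison of the ECKO groups and the interaction were therefore not matched for the sex of the cells.

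The promoters are shown because they hold matches to the elements through which immediate early genes are classically induced. RefSeq windows on GRCm38.p6 were given for 7 of the 10 genes, in 11 windows, and the 250 bases before each start were searched on both strands. Egr1, Egr3 and Ier2 had no entry. Capitals mark the cAMP response element core (TGACG on either strand), the full element (TGACGTCA, which contains the core on both strands) in Btg2, and the CArG box, the core of the serum response element, in Egr2. Each stretch lies upstream of its RefSeq start site and is written on the strand of the gene.
Egr2, chr10:67537749-67537849, plus strand: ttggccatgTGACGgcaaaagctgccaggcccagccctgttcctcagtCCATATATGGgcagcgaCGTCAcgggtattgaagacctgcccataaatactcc
Nr4a1, chr15:101266756-101266826, plus strand: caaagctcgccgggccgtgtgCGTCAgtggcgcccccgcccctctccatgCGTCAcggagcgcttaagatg
Nr4a3, chr4:48045060-48045152, plus strand: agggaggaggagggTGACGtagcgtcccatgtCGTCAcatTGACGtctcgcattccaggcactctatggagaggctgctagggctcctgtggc
Btg2, chr1:134079275-134079340, minus strand: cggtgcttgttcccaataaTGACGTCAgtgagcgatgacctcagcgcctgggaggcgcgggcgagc
The core was found before Egr2, Nr4a1, Nr4a2, Nr4a3 and Btg2, that is in 5 of the 7 genes, and in 17.8% of all 32851 windows. The full element was found before Btg2 alone of the 7 and in 1.55% of all windows, and the CArG box before Egr2 alone of the 7 and in 1.47%. An EGR site (GCGNGGGCG) was found before Nr4a1, Nr4a2 and Btg2 and in 4.7% of all windows, and a TATA box (TATAAA) before Nr4a2 and in 12.4%. The AP-1 site (TGANTCA), the NR4A element NBRE (AAAGGTCA) and the C/EBP-ATF composite element (TGATGNAA) were found before 0 of the 7 genes, and in 6.75%, 1.34% and 3.45% of all windows. A gene was counted if any of its windows matched, and Egr2 had several, so the counts of genes and the shares of windows are unlike measures. These are matches of letters and not measured binding sites.

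Set against each other per transcript length, in the deposited TPM values, the genes covered a wide range. In oxidative WT the mean TPM was 445 for Ier2, 305.5 for Ier3, 241 for Egr1, 202 for Btg2 and 159 for Nr4a1. It was 17.8 for Ier5, 10.96 for Nr4a2, 8.42 for Egr2, 4.29 for Nr4a3 and 3.11 for Egr3. Egr1, Nr4a1, Ier2, Ier3 and Btg2 were thus the abundant members. The low members rested on few reads: from 17 to 115 estimated counts per library for Nr4a3, from 18 to 273 for Egr3 and from 23 to 339 for Egr2. Levels of 1 gene across libraries are given in CPM from here on, and the level of a gene in a sorted population cannot tell fewer cells with the RNA from less RNA per cell.

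**Figure D1:**
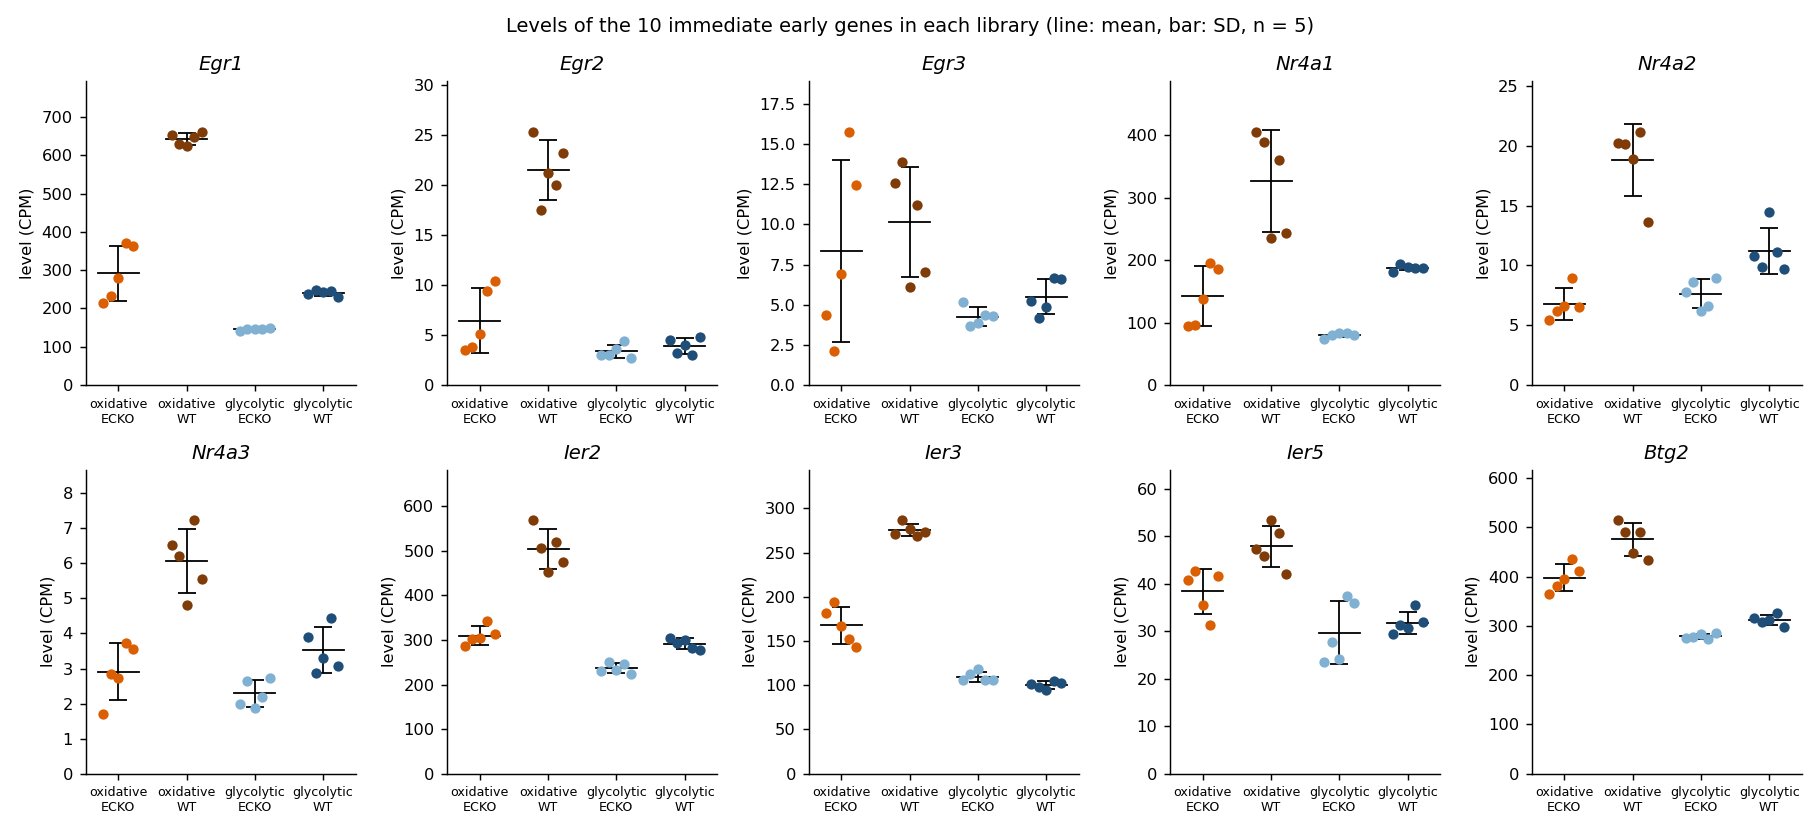
Level of each of the 10 genes in CPM (linear axis from 0) in the 5 libraries of oxidative ECKO, oxidative WT, glycolytic ECKO and glycolytic WT; each point is 1 library, in replicate order from left to right, the line is the mean and the bar the SD. Egr1 sits between 214 and 370 CPM in oxidative ECKO and between 625 and 662 CPM in oxidative WT, while Egr3 spreads from 2.13 to 15.8 CPM within oxidative ECKO.

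Egr1 (chromosome 18, 34859823 to 34864984, plus strand, GRCm38), the first-described factor of its family and a target of shear and mitogens in endothelium, had 214, 233, 280, 370 and 363 CPM in the 5 oxidative ECKO libraries and 653, 628, 625, 647 and 662 CPM in the oxidative WT libraries. In glycolytic muscle it had 142, 147, 147, 148 and 149 CPM in ECKO and 236, 248, 242, 246 and 229 CPM in WT. Oxidative WT stood above every other library, glycolytic ECKO below every other library, and oxidative ECKO and glycolytic WT overlapped in between. Egr2 (chromosome 10, 67535475 to 67542188, plus strand), best known from myelinating glia and from lymphocytes, had 3.54, 3.78, 5.09, 9.41 and 10.4 CPM in oxidative ECKO and 25.3, 17.5, 21.2, 20.0 and 23.2 CPM in oxidative WT. It had 3.05, 2.99, 3.58, 4.44 and 2.73 CPM in glycolytic ECKO and 4.53, 3.24, 4.01, 2.97 and 4.84 CPM in glycolytic WT. Oxidative WT alone was set apart for Egr2, and the other 3 groups overlapped with their neighbours in the order of means. Egr3 (chromosome 14, 70077203 to 70082614, plus strand), which VEGF induces in endothelium, had 4.38, 2.13, 6.91, 15.8 and 12.5 CPM in oxidative ECKO and 12.6, 13.9, 6.08, 11.2 and 7.07 CPM in oxidative WT. It had 3.65 to 5.16 CPM in glycolytic ECKO and 4.15 to 6.65 CPM in glycolytic WT, and all neighbouring groups overlapped.

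Nr4a1 (chromosome 15, 101254269 to 101274795, plus strand), which is also known as Nur77 and is induced in endothelium by growth factors and cytokines, had 95.2, 96.6, 138, 196 and 187 CPM in oxidative ECKO and 406, 389, 235, 361 and 244 CPM in oxidative WT. It had 73.7, 79.7, 83.4, 82.9 and 80.8 CPM in glycolytic ECKO and 182, 193, 189, 187 and 188 CPM in glycolytic WT. Glycolytic WT thus overlapped with the upper oxidative ECKO libraries, whereas oxidative WT libraries 3 and 5 lay well under the other three of their group. Nr4a2 (chromosome 2, 57106830 to 57124003, minus strand), known above all for its part in dopamine neurons, had 5.44, 6.15, 6.60, 8.98 and 6.54 CPM in oxidative ECKO and 20.2, 20.1, 18.9, 21.2 and 13.7 CPM in oxidative WT. It had 7.74, 8.64, 6.22, 6.63 and 8.92 CPM in glycolytic ECKO and 10.8, 9.85, 14.5, 11.1 and 9.73 CPM in glycolytic WT. The 2 ECKO groups overlapped at the low end, and both WT groups lay above them. Nr4a3 (chromosome 4, 48045153 to 48086447, plus strand), the third receptor of the family, had 1.70 to 3.73 CPM in oxidative ECKO and 4.82 to 7.23 CPM in oxidative WT, and 1.87 to 2.73 CPM in glycolytic ECKO and 2.87 to 4.45 CPM in glycolytic WT. For all 3 receptors the mean of glycolytic WT exceeded that of oxidative ECKO, an order in which Egr1, Egr2, Egr3, Ier2, Ier3, Ier5 and Btg2 had oxidative ECKO higher.

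Ier2 (chromosome 8, 84661331 to 84662852, minus strand), a nuclear protein of the early response to growth factors, had 286, 302, 304, 343 and 314 CPM in oxidative ECKO and 568, 507, 452, 520 and 476 CPM in oxidative WT. It had 230, 251, 233, 246 and 224 CPM in glycolytic ECKO and 305, 294, 300, 282 and 277 CPM in glycolytic WT. Its order of groups was that of Egr1. Ier3 (chromosome 17, 35821684 to 35822923, plus strand), a stress-inducible protein that acts on survival signalling, had 182, 194, 167, 153 and 143 CPM in oxidative ECKO and 271, 286, 277, 269 and 273 CPM in oxidative WT. It had 106, 113, 118, 106 and 106 CPM in glycolytic ECKO and 102, 98.0, 94.1, 104 and 102 CPM in glycolytic WT. Ier3 was the only one of the 10 with a higher mean in glycolytic ECKO than in glycolytic WT, and its 4 groups were all apart, glycolytic ECKO and glycolytic WT by the narrowest margin. Ier5 (chromosome 1, 155096361 to 155099636, minus strand), a cofactor of the heat shock response, had 31.4 to 42.8 CPM in oxidative ECKO and 42.2 to 53.4 CPM in oxidative WT, and 23.4 to 37.5 CPM in glycolytic ECKO and 29.5 to 35.5 CPM in glycolytic WT. Btg2 (chromosome 1, 134075170 to 134079120, minus strand), an anti-proliferative protein that recruits mRNA deadenylases, had 365 to 436 CPM in oxidative ECKO and 434 to 514 CPM in oxidative WT, and 273 to 285 CPM in glycolytic ECKO and 298 to 326 CPM in glycolytic WT. The ranges of Ier5 and of Btg2 overlapped between oxidative ECKO and oxidative WT. None of the 10 genes overlaps another annotated gene.

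In WT mice, all 10 genes were higher in the endothelium of the oxidative muscle than in that of the glycolytic muscle. The comparison asks how the vessels of the 2 muscle types differ without the deletion. By the quasi-likelihood test of edgeR with Benjamini-Hochberg adjustment over all tested genes, at an adjusted p under 0.05, 10 of 10 were called higher, where 32.4% of all tested genes were called in either direction and 16.4% were called higher. The libraries of the 2 groups did not overlap for 8 of the 10, all but Egr3 and Nr4a2, where 12.1% of all tested genes were higher without overlap. The median log2 fold change was 0.80 over the 10 genes and -0.003 over all tested genes. Egr2 differed most, at 21.5 CPM ± 3.01 in oxidative WT and 3.92 CPM ± 0.806 in glycolytic WT (SD, n = 5 each), a log2 fold change of 2.47 ± 0.22 (SE; edgeR adjusted p = 1.86e-09). Ier3 was 2.75-fold higher, a log2 fold change of 1.46 ± 0.061, and Egr1 2.68-fold higher, 1.42 ± 0.098. The 3 Nr4a receptors differed by much the same amount, with log2 fold changes of 0.80 for Nr4a1, 0.76 for Nr4a2 and 0.79 for Nr4a3 and SEs of 0.16, 0.14 and 0.19. Ier2 stood at 0.79 ± 0.056, and Ier5 and Btg2 were the smallest at 0.59 ± 0.11 and 0.61 ± 0.050. Egr3, at 0.87 ± 0.31 (edgeR adjusted p = 0.0349), was the least certain. Its call was lost when any of oxidative WT libraries 1, 2 and 4 or glycolytic WT libraries 1, 2 and 3 was left out (log2 fold change 0.74 to 0.85, edgeR adjusted p 0.0599 to 0.0953). Egr3 was also not called by DESeq2 (0.886, adjusted p = 0.0619) or limma-voom (0.787, adjusted p = 0.0524). On plain library totals it was not called either (0.728, edgeR adjusted p = 0.0666). Other marker lists were higher in oxidative WT too: 13 of 14 immune markers, 17 of 20 muscle fibre markers and 9 of 10 fibroblast markers were called higher, and the summed fibroblast level was 143.6 to 338.5 CPM in oxidative WT and 53.3 to 61.3 CPM in glycolytic WT. Of 11 heat shock genes known from tissue dissociation, 4 were called higher and 1 lower, with Hspa1a at 1.72 ± 0.16. Fibre and immune levels do not overlap between the WT groups. With the fibre level as a covariate 4 of the 10 stayed called (Nr4a2, Ier2, Ier3 and Btg2). With the immune level 8 stayed called, and Nr4a2 at 1.17 and Ier5 at 0.52 did not (edgeR adjusted p = 0.339 and 0.592). The part of the fibroblast and heat shock genes in the result was not tested.

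In oxidative muscle, loss of Atf4 from endothelium went with lower levels of 9 of the 10 genes. The call rate was 32.0% in either direction and 17.4% lower over all tested genes. Libraries did not overlap for 7 of the 10, where 12.0% of all tested genes were lower and 8.2% higher without overlap. The median log2 fold change was -0.89 over the 10 genes and 0.02 over all tested genes. Egr2 fell to 30.0% of its oxidative WT mean, a log2 fold change of -1.70 ± 0.21 (SE; edgeR adjusted p = 5.31e-07), and Nr4a2 to 35.8%, -1.48 ± 0.15 (edgeR adjusted p = 7.31e-09). Nr4a1 fell to 43.6% (-1.19 ± 0.16), Egr1 to 45.4% (-1.14 ± 0.098) and Nr4a3 to 48.0% (-1.05 ± 0.19). Ier2 and Ier3 stood at 61.4% and 60.9%, with log2 fold changes of -0.70 ± 0.056 and -0.72 ± 0.060. The smallest called changes were those of Ier5, -0.32 ± 0.11 (edgeR adjusted p = 0.021), and Btg2, -0.26 ± 0.050 (edgeR adjusted p = 0.00023). Egr3 was not called, at -0.24 ± 0.31 (edgeR adjusted p = 0.593). Oxidative WT also served as the upper group of the muscle comparison, so the 2 sets of fold changes share those libraries.

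The calls of Btg2 and Ier5 in oxidative muscle depended on the scaling. On plain library totals, the median of all tested genes stood at 0.17 in this comparison, against -0.13 between the WT groups, 0.07 in glycolytic muscle, -0.04 between the ECKO groups and 0.10 for the interaction, and Btg2 and Ier5 stood at -0.10 and -0.16 without a call (edgeR adjusted p = 0.135 and 0.232). In TPM, Btg2 averaged 201.6 ± 20.5 in oxidative ECKO and 202.1 ± 8.19 in oxidative WT (SD, n = 5 each). The call of Ier5 was also lost without oxidative ECKO library 3 or 4 or oxidative WT library 3 or 4 (edgeR adjusted p 0.0506 to 0.0623). Ier5 was also not called with the fibre level (-0.31, edgeR adjusted p = 0.133) or the Y-linked level (-0.23, edgeR adjusted p = 0.226) as a covariate, and Egr3 was called lower with the Y-linked level (-1.53, edgeR adjusted p = 0.000181). The 2 groups do not overlap in the Y-linked level, at 0.932 to 65.6 CPM in oxidative ECKO and 107 to 118 CPM in oxidative WT. Beside these genes, all 14 tested immune markers were called lower in oxidative ECKO and 12 of 20 fibre markers higher. With the immune level as a covariate 8 of the 10 were called, with Ier3 at -0.18 and Ier5 at -0.27 no longer so and Egr3 at -4.07 newly so, and the 2 groups do not overlap in that level. Of the 11 heat shock genes, 10 were called lower in oxidative ECKO, led by Hspa1a at -2.25 ± 0.16. Their part in the result was not tested.

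In glycolytic muscle, loss of Atf4 went with lower levels of 6 of the 10 genes: Egr1, all 3 Nr4a receptors, Ier2 and Btg2. The call rate was 29.0% in either direction and 15.1% lower over all tested genes. Libraries did not overlap for 7 of the 10, with 22.4% over all tested genes in either direction, and in 1 of the 7, Ier3, ECKO was the higher group. The median log2 fold change was -0.34 over the 10 genes and 0.004 over all tested genes. Nr4a1 fell most, to 80.1 CPM ± 3.86 in glycolytic ECKO, against 187.8 CPM ± 4.18 in glycolytic WT (SD, n = 5 each), a log2 fold change of -1.23 ± 0.17 (SE; edgeR adjusted p = 2.17e-06). Egr1 stood at -0.71 ± 0.099, or 61.0% of glycolytic WT, and Ier2 at -0.30 ± 0.057, or 81.1%. Btg2 was lower by the least, 89.3% of glycolytic WT and a log2 fold change of -0.16 ± 0.051 (edgeR adjusted p = 0.0162), and on plain library totals it stood at -0.09 without a call (edgeR adjusted p = 0.174). Nr4a2, at -0.56 ± 0.15 (edgeR adjusted p = 0.00587), turned to 0.09 when estimated transcript lengths were taken into account (edgeR adjusted p = 0.866), and in TPM it averaged 6.46 ± 2.74 in glycolytic ECKO and 5.37 ± 0.903 in glycolytic WT. Nr4a3, at -0.63 ± 0.21 (edgeR adjusted p = 0.0257), lost its call without glycolytic ECKO library 1, 3 or 4 or glycolytic WT library 4 (edgeR adjusted p 0.0545 to 0.0811). By limma-voom Nr4a3 was not called (-0.597, adjusted p = 0.0599). Egr2 at -0.18 ± 0.26, Egr3 at -0.38 ± 0.35 and Ier5 at -0.09 ± 0.11 were not called. Egr2 and Egr3 were called lower with the Y-linked level as a covariate (-1.71 and -2.35, edgeR adjusted p = 6.9e-05 and 8.46e-05) and with the immune level (-0.98 and -1.57, edgeR adjusted p = 0.00573 and 0.000818), levels at which the 2 groups do not overlap. Ier3 was at 0.13 ± 0.062 and not called (edgeR adjusted p = 0.115), although the groups were apart, and it was called higher when only the 2 groups were fitted (0.14, edgeR adjusted p = 0.0159) or on plain library totals (0.20, edgeR adjusted p = 0.0116). The same held with the immune level (0.31, edgeR adjusted p = 0.00211) or the Y-linked level (0.47, edgeR adjusted p = 0.000129) as a covariate. All 11 heat shock genes were called lower in glycolytic ECKO, Hspa1a by the most at -1.79 ± 0.17, and 12 of 20 fibre markers were called higher. With the fibre level as a covariate, in which the 2 groups do not overlap either, 2 of the 10, Egr1 and Nr4a1, stayed called. Of the 11 pan-endothelial markers 7 were called lower and 0 higher, with a median log2 fold change of -0.32. The summed level of 10 pericyte and smooth muscle markers was 1993 to 2055 CPM in glycolytic ECKO and 845.9 to 857.5 CPM in glycolytic WT, with 3 called higher and 1 lower. That of 10 fibroblast markers was 125.5 to 131.6 CPM in glycolytic ECKO and 53.3 to 61.3 CPM in glycolytic WT, with 4 called higher. The part of these lists in the lower levels of the 6 genes was not tested.

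**Figure D2:**
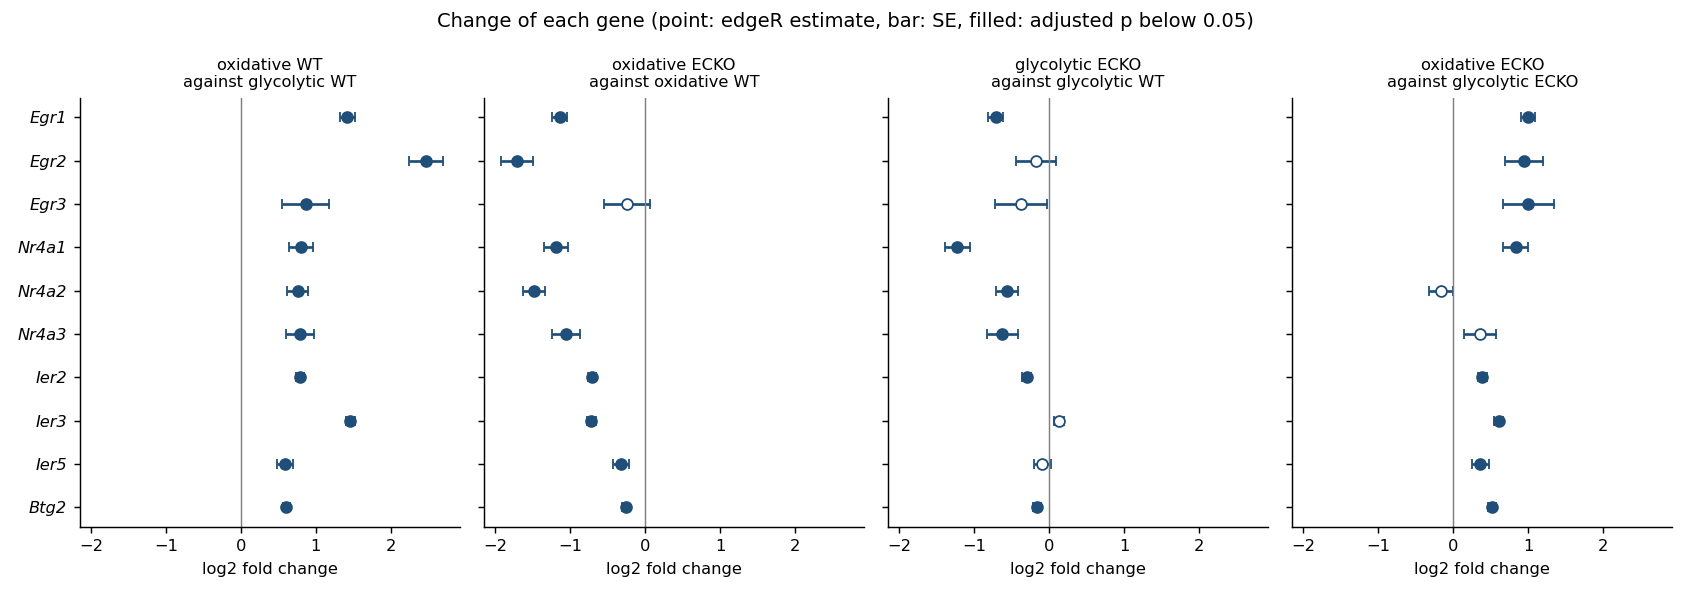
Log2 fold change of each of the 10 genes in 4 comparisons, with the group named first over the group named second; points are edgeR estimates, bars are SE, and filled points have an adjusted p under 0.05. All 10 points are filled and right of 0 for oxidative WT against glycolytic WT, 9 are filled and left of 0 for oxidative ECKO against oxidative WT, 6 are filled and left of 0 in glycolytic muscle, and 8 are filled and right of 0 between the ECKO groups.

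The interaction term asked whether the change with genotype differed between the muscles. It was called for 5 of the 10 genes, each with the lower value in oxidative muscle, where 22.6% of all tested genes were called in either direction, 12.5% lower and 10.1% higher. Egr2 differed most, with a genotype change of -1.70 in oxidative muscle and -0.18 in glycolytic muscle, a difference of -1.53 ± 0.34 (SE; edgeR adjusted p = 0.00155). Nr4a2 changed by -1.48 in oxidative muscle and -0.56 in glycolytic muscle, a difference of -0.92 ± 0.21 (edgeR adjusted p = 0.00173). Ier3 changed by -0.72 in oxidative muscle and stood at 0.13 in glycolytic muscle, a difference of -0.85 ± 0.086 (edgeR adjusted p = 3.18e-08). Ier2 differed by -0.40 ± 0.080 (edgeR adjusted p = 0.000453) and Egr1 by -0.43 ± 0.14 (edgeR adjusted p = 0.0263). The call of Egr1 was lost without oxidative ECKO library 2 or glycolytic ECKO library 3 (edgeR adjusted p = 0.0514 and 0.0552), on plain library totals (-0.33, edgeR adjusted p = 0.106), with transcript lengths taken into account (-0.40, edgeR adjusted p = 0.0527), with the fibre or Y-linked level as a covariate (-0.35 and -0.12, edgeR adjusted p = 0.062 and 0.229), and with oxidative ECKO libraries 4 and 5 as the only ones of their group (-0.10, edgeR adjusted p = 0.311). Nr4a1 had nearly the same value in both muscles, -1.19 and -1.23, and the difference was 0.04 ± 0.23 (edgeR adjusted p = 0.937). Egr3, Nr4a3, Ier5 and Btg2 were not called, with differences of 0.14 ± 0.46, -0.43 ± 0.29, -0.23 ± 0.15 and -0.09 ± 0.071. With oxidative ECKO libraries 4 and 5 as the only ones of their group, Egr3 was called higher (0.861, edgeR adjusted p = 0.0459). With libraries 1, 2 and 3 alone Egr3 was not called (-0.694, edgeR adjusted p = 0.177).

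In mice without endothelial Atf4, 8 of the 10 genes were still higher in oxidative than in glycolytic endothelium. The call rate was 18.4% in either direction, 8.31% higher and 10.1% lower, over all tested genes. Libraries did not overlap for 5 of the 10 (Egr1, Nr4a1, Ier2, Ier3 and Btg2), where 5.66% of all tested genes were higher and 7.59% lower without overlap. The median log2 fold change was 0.56 over the 10 genes and -0.002 over all tested genes. Egr1 averaged 292 CPM (SD 72.2) in oxidative ECKO, against 147 CPM (SD 2.65) in glycolytic ECKO, over 5 libraries each, a log2 fold change of 1.00 ± 0.099 (SE; edgeR adjusted p = 4.46e-08). Nr4a1 stood at 0.84 ± 0.17, Ier3 at 0.61 ± 0.062, Btg2 at 0.51 ± 0.051 and Ier2 at 0.39 ± 0.057. Nr4a2 and Nr4a3 were not called, at -0.17 ± 0.16 and 0.36 ± 0.22 (edgeR adjusted p = 0.527 and 0.273). The calls of Egr2 (0.94 ± 0.25), Egr3 (1.00 ± 0.34) and Ier5 (0.36 ± 0.11) depended on the method and on few libraries. Egr2 was not called by limma-voom (0.857, adjusted p = 0.0596) or with transcript lengths taken into account (0.799, edgeR adjusted p = 0.0574). Egr3 was not called by DESeq2 (0.979, adjusted p = 0.0611) or limma-voom (0.826, adjusted p = 0.182). With only the 2 groups fitted, Egr3 and Ier5 were not called (1.005 and 0.371, edgeR adjusted p = 0.0824 and 0.0602). Egr2 lost its call without oxidative ECKO library 5 (0.67, edgeR adjusted p = 0.0512), Egr3 without oxidative ECKO library 4 or 5 or glycolytic ECKO library 2, 3, 4 or 5 (0.68 to 1.01, edgeR adjusted p 0.0659 to 0.152), and Ier5 without oxidative ECKO library 2 or 5 or glycolytic ECKO library 1, 2 or 3 (0.29 to 0.34, edgeR adjusted p 0.0526 to 0.0776). Without oxidative ECKO library 5, 5 of the 10 genes were called. The ECKO groups also differed in Y-linked RNA, which only oxidative ECKO libraries 1, 2 and 3 carried. Against glycolytic ECKO, these gave 0.305 for Egr2 and 0.164 for Egr3 without a call (edgeR adjusted p = 0.342 and 0.757). With libraries 4 and 5 as the only ones of oxidative ECKO, Ier5 was not called (0.303, edgeR adjusted p = 0.154). The same held with the Y-linked level as a covariate (0.276, edgeR adjusted p = 0.177). In oxidative ECKO 13 of 20 fibre markers and 11 of 14 immune markers were called higher. With the fibre level as a covariate Ier3 and Btg2 alone stayed called, and with the immune level 6 were called, with Ier3 at 0.22 and Ier5 at 0.32 no longer so (edgeR adjusted p = 0.33 and 0.523). The ECKO groups do not overlap in the fibre level or in the immune level. The part of these markers in the result was not tested further.

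The 5 oxidative ECKO libraries differed among themselves, and libraries 4 and 5, which lacked Y-linked RNA, stood apart from libraries 1, 2 and 3, which carried it. The summed level of the 10 genes was 1199, 1265, 1339, 1567 and 1493 CPM in these 5 libraries, 2140 to 2524 CPM in oxidative WT, 867 to 915 CPM in glycolytic ECKO and 1151 to 1206 CPM in glycolytic WT. Libraries 4 and 5 were the highest for Egr1, Egr2, Egr3, Nr4a1, Nr4a3, Ier2 and Btg2, without overlap with the other 3, and lowest for Ier3. Of the 10338 genes that averaged 4 CPM or more, which leave out Nr4a3, 19.9% were higher and 21.5% lower in libraries 4 and 5 without overlap. The ratio of the 2 means was 3.16 for Egr3, 2.39 for Egr2, 1.74 for Nr4a1 and 1.51 for both Egr1 and Nr4a3, and 1.10 for Ier2 and 1.12 for Btg2. Ier3 had a ratio of 0.818, and Nr4a2 and Ier5 overlapped. Over the same 10338 genes, the median ratio was 0.993, and 2.74% lay above 1.5. Egr3, which was not called against oxidative WT over all 5 libraries, stood at 139% of oxidative WT in libraries 4 and 5 (log2 fold change 0.48, edgeR adjusted p = 0.125) and at 44.0% in libraries 1, 2 and 3 (-1.09, edgeR adjusted p = 0.00243). With libraries 1, 2 and 3 alone 9 of the 10 genes were called against oxidative WT, where 30.2% of all tested genes were, and with libraries 4 and 5 alone 9 of 10, where 25.6% were. The sex of the animals and any other difference between these libraries cannot be told apart.

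Pooled over the 20 libraries with group means removed, 8 of the genes correlated positively with each other. Ier3 correlated negatively with them, and Ier5 did not follow them closely. After the group mean was taken from each library's log2 CPM, all 28 pairs among Egr1, Egr2, Egr3, Nr4a1, Nr4a2, Nr4a3, Ier2 and Btg2 had a positive Pearson r over the 20 libraries, from 0.155 to 0.88. The closest pairs were Egr3 with Nr4a1 at 0.88 and Nr4a1 with Btg2 at 0.876. Pairs with Ier3 were negative in 8 of 9 cases, down to -0.815 with Egr1, and pairs with Ier5 lay between -0.259 and 0.0769. The values of a library share its depth and scaling. The spread of Egr1 lay largely in oxidative ECKO, where libraries 4 and 5 stood apart. Its log2 CPM deviated by -0.41 to 0.378 there and by -0.069 to 0.044 in the other groups. Ier3 deviated by -0.219 to 0.221 in oxidative ECKO and by -0.089 to 0.106 in the other groups. The r of Egr1 with Ier3 thus rests largely on the difference between oxidative ECKO libraries, and other r values also carry it. No r was computed inside a single group, so these values do not show that the genes varied together in each group. The share of positive pairs over all genes was not computed. Among oxidative WT libraries, libraries 3 and 5 were the lowest for Egr3, Nr4a1, Ier2 and Btg2. In both glycolytic groups Egr1, Nr4a1 and Btg2 had coefficients of variation of 1.81% to 4.82%, against 6.89% to 33.6% in oxidative ECKO and 2.48% to 24.9% in oxidative WT. Ier5 had 22.3% in glycolytic ECKO, against 12.5% in oxidative ECKO and 9.05% in oxidative WT. Over all tested genes, edgeR estimated a spread beyond counting noise of 13.4% in oxidative ECKO and 10.1% in oxidative WT. It was 6.83% in glycolytic ECKO and 8.17% in glycolytic WT.

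**Figure D3:**
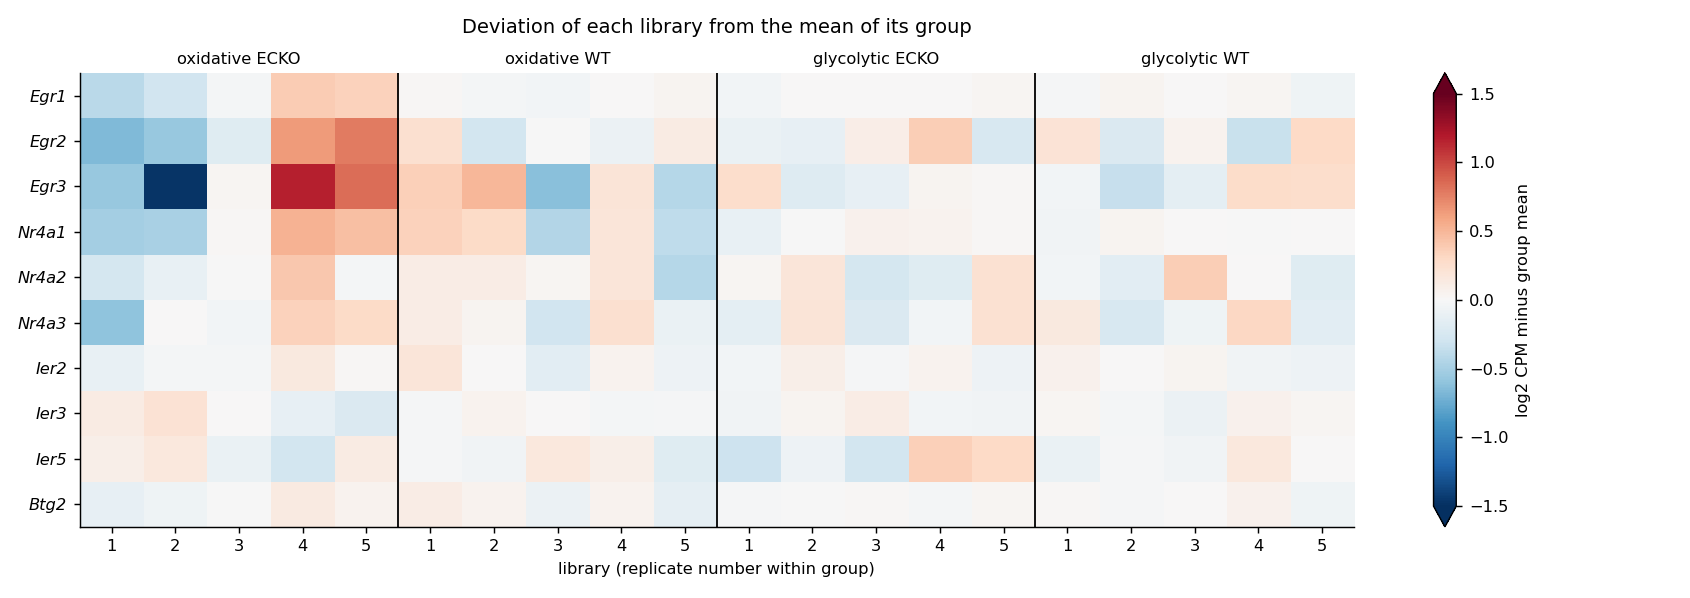
Log2 CPM of each of the 10 genes (rows) in each of the 20 libraries (columns, by group and replicate number) minus the mean of its group; red is above and blue below the group mean, and the colour scale ends at 1.5. In oxidative ECKO the 2 right-hand libraries are red for the Egr genes, Nr4a1 and Nr4a3 and blue for Ier3, and the glycolytic columns are pale for Egr1, Nr4a1, Ier2 and Btg2.

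The genes whose level followed the 10 most closely were other immediate early genes and 2 genes of unlike function. Measured as Pearson r with the mean z score of the 10 genes over the 20 libraries, among 10329 genes with at least 4 CPM, they were Fos and Zfp36 (0.965 each), Endou (0.956), Slc26a10 (0.953) and Jun (0.949). Group means were not removed for these r values, so they also reflect the differences between the groups. Fos, the partner of Jun in the AP-1 factor, averaged 364.5 CPM ± 44.2 in oxidative ECKO and 1089 CPM ± 137 in oxidative WT, and 184.5 CPM ± 4.34 in glycolytic ECKO and 213.5 CPM ± 5.39 in glycolytic WT (SD, n = 5 each). Zfp36, which encodes the mRNA-destabilising protein tristetraprolin, averaged 237 CPM in oxidative ECKO and 525 CPM in oxidative WT, and 161 CPM in glycolytic ECKO and 239 CPM in glycolytic WT.

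The wider immediate early response was described from a list of 32 other genes, all tested. In oxidative WT against glycolytic WT 23 were called higher and 2 lower, with a median log2 fold change of 0.58, and Fosb at 2.92 ± 0.096, Fos at 2.35 ± 0.077 and the stress-induced factor Atf3 at 2.10 ± 0.090 had the smallest adjusted p. In oxidative ECKO against oxidative WT 22 were called lower and 2 higher (median -0.43), with Atf3 at -1.97 ± 0.089 and the AP-1 member Fosl1 at -2.50 ± 0.14. In glycolytic muscle the list was mixed, with 12 called lower and 9 higher (median -0.12). There the matricellular genes Ctgf and Cyr61 rose by 1.83 ± 0.088 and 1.03 ± 0.060 and Gadd45b, a growth arrest gene, by 1.71 ± 0.13, while Fos was lower by a log2 fold change of -0.21 ± 0.074 (edgeR adjusted p = 0.034). Between the ECKO groups 16 were called higher in oxidative muscle and 4 lower (median 0.23). The interaction was called lower for 19 and higher for 5. Over all tested genes 32.4% were called in either direction between the WT groups and 18.4% between the ECKO groups. With genotype 32.0% were called in oxidative and 29.0% in glycolytic muscle, and 22.6% for the interaction.

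Of 11 partners and relatives of the 10 genes 9 were tested, and the means of Egr4 and Btg4 were at most 0.162 CPM. In oxidative WT against glycolytic WT 3 were called higher and 1 lower, in oxidative ECKO against oxidative WT 1 higher and 5 lower, and in glycolytic ECKO against glycolytic WT 0 higher and 3 lower, where 32.4%, 32.0% and 29.0% of all tested genes were called in either direction. Nab2, a corepressor that binds Egr proteins and is induced by them, averaged 24.6 CPM ± 3.66 in oxidative ECKO and 37.2 CPM ± 4.71 in oxidative WT, and 17.8 CPM ± 2.07 in glycolytic ECKO and 29.4 CPM ± 2.95 in glycolytic WT (SD, n = 5 each). Its log2 fold change was 0.35 ± 0.099 between the WT groups, -0.60 ± 0.10 with genotype in oxidative muscle and -0.72 ± 0.11 in glycolytic muscle, all 3 called by edgeR. Nab1, the constitutive member of the pair, was called by edgeR in none of the 5 comparisons, with log2 values from -0.16 to 0.24. Btg1, a relative of Btg2, stood at 0.36 ± 0.058, -0.26 ± 0.058 and -0.20 ± 0.059 in the same 3 comparisons.

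Of 23 genes for factors and kinases that act upstream of immediate early genes, 6 were called higher and 2 lower in oxidative WT against glycolytic WT, 3 higher and 4 lower in oxidative ECKO against oxidative WT, and 2 higher and 4 lower in glycolytic ECKO against glycolytic WT. Over all tested genes 32.4%, 32.0% and 29.0% were called in either direction in these comparisons, and the list was close to those rates. Crem, a CREB family gene that is itself cAMP-induced, was lower with genotype in both muscles, at -0.60 ± 0.057 in oxidative and -0.50 ± 0.058 in glycolytic muscle. Srf, for serum response factor, averaged 10.2 CPM ± 1.86 in oxidative ECKO and 11.4 CPM ± 1.68 in oxidative WT, and 11.6 CPM ± 0.878 in glycolytic ECKO and 10.3 CPM ± 1.70 in glycolytic WT (SD, n = 5 each). It was called by edgeR in none of the 5 comparisons (adjusted p 0.159 to 0.34), and its mRNA level says nothing of the activity of the protein.

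**Figure D4:**
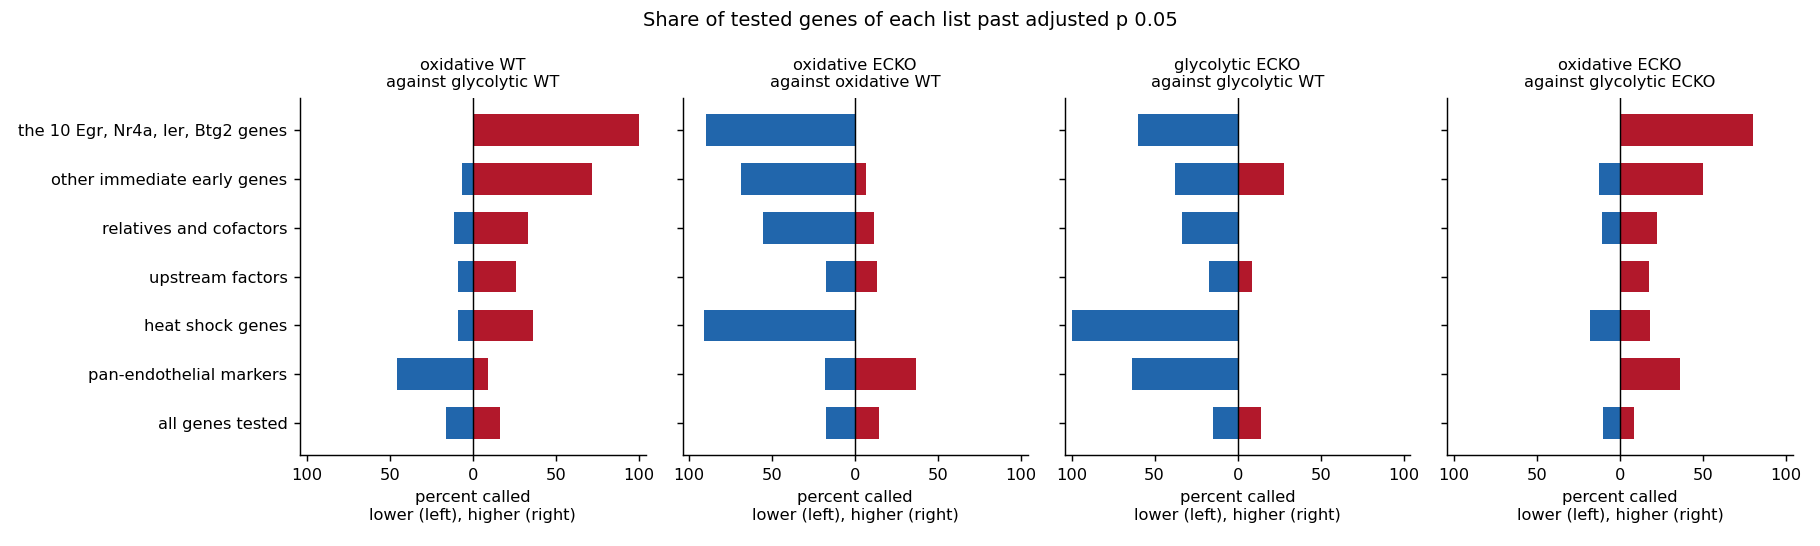
Percent of the tested genes of each list called by edgeR at an adjusted p under 0.05, lower to the left in blue and higher to the right in red, in 4 comparisons with the group named first over the group named second; the last row gives all 13971 tested genes. The 10 genes and the 32 other immediate early genes extend mainly to the right for oxidative WT against glycolytic WT and to the left for oxidative ECKO against oxidative WT, while the heat shock genes extend to the left in both genotype comparisons.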

How the data were processed

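Estimated counts and TPM per transcript were deposited by the authors, in a table for each library. Per the submitters' processing notes, the tools were kallisto and DESeq2, without versions, and the build GRCh38.p13, which is human. The files nevertheless hold 129439 mouse Ensembl transcripts, of which 128643 were found in GENCODE M21 (GRCm38), which gave gene names and coordinates. At most 0.221% of a library's counts had no match. The sources used here do not give the strand setting.

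Expected counts, as deposited, were summed per gene, rounded and tested in R 4.3.3 with edgeR 4.0.16 (quasi-likelihood test, TMM factors, filterByExpr, 4 group means over 20 libraries, Benjamini-Hochberg adjustment over 13971 genes, call at an adjusted p under 0.05). The SE is the log2 value over the square root of F and is approximate. CPM uses TMM-normalised library sizes, and correlations use log2 CPM with a pseudocount of 0.5. No pair of libraries agreed within sampling noise. The fit was tested on simulated data. Alternatives were RLE factors, no filter, DESeq2 1.42.0, limma-voom (limma 3.58.1), a length offset, 2 groups alone, a replicate block, marker and Y-linked levels as covariates, and leaving out each library. The split of oxidative ECKO by Y-linked RNA, and plain library totals, were added after seeing the data.

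The 10 genes and all lists were chosen with earlier results of these data known. Of other lists, up to 4 called genes with the smallest adjusted p per comparison could be named, with Nab1, Nab2, Egr4, Btg1, Srf, Fos and Atf4, any marker set beside a result, and the 5 genes most like the 10. Btg4 was named for not being tested.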

Additional observations from a re-analysis of the deposited data

Results flagged for a closer look

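Among the 40 groups of 5 libraries (10 genes in 4 groups), 1 held a library far from the others: Nr4a2 in glycolytic WT had 14.48 CPM in library 3, the highest of its group, where the other 4 had 9.73 to 11.1 CPM. Chance gives about 5% of such groups.

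The change with genotype differed between the muscles by the interaction term for 5 genes. On the log2 scale, oxidative minus glycolytic, the difference was -1.525 for Egr2, -0.921 for Nr4a2, -0.851 for Ier3, -0.425 for Egr1 and -0.402 for Ier2. For Nr4a2, the gene with the distant library, the interaction value lay on the same side of 0 and of the threshold in every alternative run.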

How the results depend on the processing

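Leaving out each library in turn, the number of the 10 genes called was 9 to 10 between the WT groups, 8 to 9 with genotype in oxidative muscle, 5 to 6 in glycolytic muscle, 5 to 8 between the ECKO groups and 4 to 5 for the interaction. With the immune level as a covariate the genes called over all tested genes were 943 between the WT groups, 1554 with genotype in oxidative muscle, 997 between the ECKO groups and 1981 for the interaction, against 4520, 4470, 2573 and 3163 without it, and the interaction was called for 9 of the 10 genes, against 5. With the fibre level as a covariate the genes called were 720 between the WT groups, 1770 in glycolytic muscle and 549 between the ECKO groups, against 4520, 4054 and 2573, and of the 10 genes 4, 2 and 2 were called, against 10, 6 and 8. Both levels differ between the groups, and the cause of the lost calls was not tested.

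Directions turned for these log2 values, given beside the value as reported. For Nr4a1 the interaction (0.04) was -1.30 with the immune covariate, -0.307 with the oxidative ECKO libraries that carry Y-linked RNA alone, and -0.101 to 0.154 over the libraries left out in turn, below 0 without oxidative ECKO library 4 or 5 or oxidative WT library 3 or 5. For Egr3 the interaction (0.14) was -2.50, -0.694 and -0.186 to 0.347 under the same settings, below 0 without oxidative ECKO library 4 or 5 or oxidative WT library 3. With the oxidative ECKO libraries without Y-linked RNA alone it was 0.861. Egr3 was -0.185 between the WT groups (0.87) with the fibre covariate and 0.48 with genotype in oxidative muscle (-0.24) in libraries without Y-linked RNA. Egr2 between the ECKO groups (0.94) was -0.288 with the fibre covariate. With the length offset, Egr2 in glycolytic muscle (-0.18) was 0.033 and Nr4a2 (-0.56) was 0.085. Nr4a2 between the ECKO groups (-0.17) was 0.044 with the immune covariate, 0.399 with the fibre covariate, 0.011 with the Y-linked covariate and 0.015 in libraries without Y-linked RNA. Ier5 in glycolytic muscle (-0.09) was 0.079 with the Y-linked covariate, and the Btg2 interaction (-0.09) was 0.001 in libraries without Y-linked RNA. The cause was not tested. Of the calls among these, those of Egr3 between the WT groups, of Egr2 between the ECKO groups and of Nr4a2 in glycolytic muscle were lost.

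Same-numbered libraries of different groups showed little joint deviation (r of deviations from group means -0.0662 to 0.0996). The sources used here do not say what a replicate number means, and these values cannot decide it. With the replicate block the genes called among the 10 were 10, 9, 6 and 5, as without it, and 7 between the ECKO groups, against 8, where Egr3 stood at 0.926 (edgeR adjusted p = 0.0547). The fit of 2 groups alone was not run for the interaction. Depth limits Egr2, Egr3, Nr4a2 and Nr4a3, whose lowest libraries held 23, 18, 52 and 17 counts.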

Other observations

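The estimated counts of Egr1 lay mostly in the shorter of its 2 annotated transcripts, Egr1-202, with 84.3% in oxidative ECKO, 83.3% in oxidative WT, 82.5% in glycolytic ECKO and 84.0% in glycolytic WT on average. Those of Nr4a1 lay mostly in 1 of its 4 annotated transcripts, which held at least 89.3% on average, the value of glycolytic ECKO, in each group. Egr3 counts were split between the coding transcript Egr3-204 and Egr3-202, a single-exon form annotated as a retained intron. Egr3-202 took 44.2% on average in oxidative ECKO (14.6% to 93.1% over libraries), 73.6% in oxidative WT (39.4% to 100.0%), 34.4% in glycolytic ECKO and 52.0% in glycolytic WT. The share was as variable between libraries of 1 group as between groups, so no difference in transcript use was read from it. Ier2, Ier3, Ier5 and Btg2 have 1 annotated transcript each.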
